A study of Danio rerio with 26 samples.

Results

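The SR proteins are a family of splicing factors, and 10 zebrafish genes of the family were followed here: srsf1a, srsf1b, srsf2a, srsf2b, srsf3a, srsf3b, srsf5a, srsf6b, srsf7a and srsf7b. They were chosen by gene symbol in 4 tables of gene-level RNA-seq values, and each symbol was present in all 4 tables. The 3 mutant tables held 30919 genes (magoh, 21 hpf), 30948 genes (rbm8a, 21 hpf) and 30944 genes (rbm8a, 27 hpf), and the upf1 morphant table held 28441 genes (12 hpf, hours post-fertilization). srsf3a stood on 2 rows of each mutant table, under ENSDARG00000025397 and ENSDARG00000100815. The second row had at most 1.00 FPKM in any library, did not pass the filter on low values, and was not tested. FPKM here is a read count scaled for gene length and for a factor of the library. That factor did not follow the total reads of a library, so FPKM sums differed widely between libraries of like depth.

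The study asked how loss of exon junction complex (EJC) proteins alters embryonic gene expression and nonsense-mediated decay (NMD). Its 26 samples included 22 libraries of the 4 tables. At 21 hpf, 3 libraries of homozygous magoh mutants (frameshift allele oz37) were set against 3 of their siblings, and 3 libraries of homozygous rbm8a mutants (frameshift allele oz36) against 3 of theirs. The same rbm8a comparison was made at 27 hpf with 3 libraries each, and at 12 hpf 2 libraries of wild-type embryos injected with a upf1 splice-blocking morpholino were set against 2 of uninjected embryos. All alleles were carried in the AB background. The siblings were embryos of normal appearance from the same heterozygote crosses, so they were a mix of wild types and heterozygotes, and maternal EJC protein remains in young homozygotes. Every library came from pooled whole embryos, in which fewer cells of a type and less RNA per cell cannot be told apart. Nothing in the labels says that libraries of a group came from separate clutches, so p-values measure only the spread between these libraries. An EJC immunoprecipitation table without gene names was not used here.

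SR proteins hold RNA-recognition domains and a tail rich in arginine and serine. They bind enhancer sequences in exons, help the spliceosome find splice sites, and are phosphorylated by the SRPK and CLK kinases. In mammals most of their genes hold ultraconserved "poison" exons or introns in the 3′UTR whose splicing gives a transcript that NMD degrades, and the proteins limit their own levels in that way. The EJC, built on Eif4a3, Rbm8a and Magoh, is left upstream of spliced junctions and marks such transcripts, and the helicase Upf1 is central to their decay. SR proteins also join the EJC in the assembled messenger particle of human cells.

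A transcript that decays this way is only one of the products of its gene, and the deposited values sum over all products. The study lists srsf7a and srsf3a as genes with an intron in the 3′UTR. Which of their products are amplified by the study's own qRT-PCR primers was not tested here. They are printed as the only designed sequences for these genes, each 20 bases, from 5′ to 3′ in lower case:
srsf7a-F: ccacttcagggagctcagac
srsf7a-R: aatgacctgtctccccacac
srsf3a-F: cggccacgagacgattatag
srsf3a-R: ttggtgtacgctggtcacat
The RNA-seq values below belong to the whole genes srsf7a (ENSDARG00000035325) and srsf3a (ENSDARG00000025397), not to single transcripts.

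Several libraries stood apart, or went against their labels, so that "labelled mutant" and "sibling" below name only what a library is called. Whole reads recovered from the FPKM gave 14884594 to 24086384 reads a library in the magoh table, 1561184 to 71708321 at 21 hpf and 9193992 to 95877745 at 27 hpf in the rbm8a tables, and 73345144 to 93157779 in the morphant table. The magoh libraries labelled mutant 1 and sibling 2 correlated with each other (r = 0.95 across genes, which are not independent replicates) and had FPKM sums of 12658731 and 4321182, against 798941 to 917270 in the other 4. The rbm8a library labelled mutant 2 at 21 hpf, the shallowest of all, had a median r of 0.735 with the rest. In the mutant tables the targeted gene did not separate the labels over all libraries. magoh had 17, 3.67 and 3.58 FPKM in labelled mutants and 4.42, 13.6 and 6.51 FPKM in siblings. The values of 17 and 13.6 FPKM were those of mutant 1 and sibling 2, which stand apart in scale. Among the other 4 libraries magoh was lower in both labelled mutants than in both siblings. In the rbm8a tables the labels overlapped for rbm8a. It had 7.01, 7.28 and 8.39 FPKM in labelled mutants at 21 hpf against 6.99, 13.2 and 13.3 FPKM in siblings. At 27 hpf it had 3.69, 3.65 and 14.4 FPKM in labelled mutants, against 2.82, 12.7 and 10.7 FPKM in siblings. upf1 had 30.3 and 31.3 FPKM in morphants and 45.2 and 45.9 FPKM in controls.

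At 12 hpf the SR genes differed little between upf1 morphants and controls: srsf6b, srsf1a and srsf1b fell, srsf2b rose, and no change reached 1.5-fold. A gene was called when it passed an adjusted p of 0.05 (limma on log2(FPKM + 1), Benjamini-Hochberg over all genes) and changed at least 1.5-fold. By that rule 0 of 10 members were called, beside 2.3% of the 17057 genes tested. By the adjusted p alone 1 member was higher, where 11.2% of all genes were, and 3 were lower, where 12.8% of all genes were. The members' median log2 fold change was -0.10, and that of all genes -0.0032. Of the 10 members 2 had a fitted change above 0, where 49.4% of all genes did, and 5 had an unadjusted p under 0.05, where 38.9% did. srsf6b passed the adjusted p under every alternative run. srsf1a, srsf1b and srsf2b lost it when any 1 library was left out (limma adjusted p from 0.0505 to 0.251 over the 3 genes). srsf1a (0.0837) and srsf1b (0.102) also lost it when genes above 0 in at least 1 library were all tested, and srsf1a with quantile normalization (0.0546).

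srsf6b (ENSDARG00000016783), the gene of an SR protein that binds exonic enhancers in mammals, had 60.4 and 62.8 FPKM in morphants and 81.2 and 80.05 FPKM in controls. Both morphant libraries lay below both controls, with a gap far wider than the spread inside either pair. Its log2 fold change was -0.38 (SE 0.037, 95% interval -0.47 to -0.29, limma adjusted p = 0.00257), on 19659 to 22671 reads a library. It changed more than any other member in this table.

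srsf1a (ENSDARG00000057691) and srsf1b (ENSDARG00000017843) encode the zebrafish counterparts of SRSF1, a factor for constitutive splicing and for the choice among competing 5′ splice sites. srsf1a had 278.1 and 269.8 FPKM in morphants and 304.7 and 304.6 FPKM in controls. Its fold change was -0.15 on the log2 scale (SE 0.039, limma adjusted p = 0.0376). Its paralog srsf1b had 70.2 FPKM in both morphants and 75.7 and 80.5 FPKM in controls, with a log2 fold change of -0.15 (SE 0.041, limma adjusted p = 0.0471). Both paralogs were lower in each morphant library than in each control, and the ratio of srsf1a to srsf1b, 3.84 to 3.96 in morphants and 3.79 to 4.03 in controls, overlapped between the groups.

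The srsf2 pair are counterparts of SRSF2 (SC35), a nuclear speckle protein that binds exonic enhancers. Their fitted changes had opposite signs and brought their unequal levels closer, and only that of srsf2b passed the adjusted p. srsf2b (ENSDARG00000103893) had 15.7 and 15.6 FPKM in morphants against 13.4 and 13.0 FPKM in controls. This was a rise of 0.23 on the log2 scale (SE 0.042, 95% interval 0.13 to 0.33, limma adjusted p = 0.0141). srsf2a (ENSDARG00000057484) had 189.8 and 181.0 FPKM in morphants and 200.2 and 199.9 FPKM in controls; its log2 fold change of -0.11 (SE 0.040) did not pass (limma adjusted p = 0.0983). The ratio of srsf2a to srsf2b was therefore 11.6 to 12.1 in morphants and 14.9 to 15.4 in controls, without overlap; the ratio itself was not tested.

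Besides srsf2a, a further 5 members did not pass the test. srsf3a and srsf3b encode counterparts of SRSF3, and srsf7a and srsf7b (ENSDARG00000101057) of SRSF7, 2 related SR proteins that in mammals also link messenger RNA to the export receptor. srsf3a had 6.86 and 7.01 FPKM in morphants and 7.59 and 7.37 FPKM in controls. srsf3b (ENSDARG00000059360) had 96.0 and 93.5 FPKM in morphants and 91.5 and 93.3 FPKM in controls. The srsf3a libraries did not overlap between the groups, nor, by a narrow margin, did those of srsf3b, and they lay in opposite directions. Groups that do not overlap were common in this table, with 32.4% of all genes higher and 33.9% lower in both morphants.

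srsf7a had 142.8 and 137.2 FPKM in morphants and 146.6 and 140.1 FPKM in controls. srsf5a (ENSDARG00000029818), which encodes a further enhancer-binding SR protein, had 203.6 and 193.5 FPKM in morphants and 198.5 and 208.3 FPKM in controls. For both genes the groups overlapped. The 95% interval of the log2 fold change ran from -0.14 to 0.069 for srsf7a and from -0.15 to 0.077 for srsf5a, so a gene-level change of 1.5-fold lay outside both. srsf7b was nearly silent, at 0.545 and 0.765 FPKM in morphants and 0.763 and 0.805 FPKM in controls, on 102 to 144 reads a library.

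**Figure D1:**
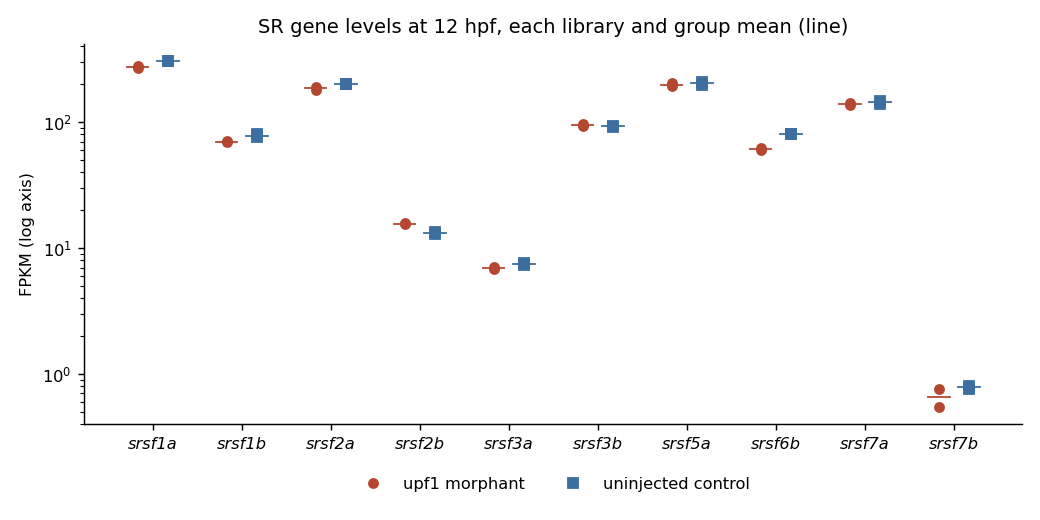
FPKM of the 10 SR genes on a log axis in each library at 12 hpf, upf1 morphants (circles) left of uninjected controls (squares), with the group mean as a line. srsf6b, srsf1a, srsf1b, srsf2a and srsf3a sit lower, and srsf2b and srsf3b higher, in both morphants. Of these srsf2a, srsf3a and srsf3b did not pass the adjusted p. Of all genes 33.9% lay lower and 32.4% higher in both morphants. The differences are small beside the range of levels between genes.

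In the order of levels at 12 hpf, srsf1a stood first (269.8 to 304.7 FPKM over the 4 libraries). srsf5a (193.5 to 208.3 FPKM) and srsf2a (181.0 to 200.2 FPKM) followed and overlapped. Then came srsf7a (137.2 to 146.6 FPKM) and srsf3b (91.5 to 96.0 FPKM), which overlapped with no neighbour, and srsf1b (70.2 to 80.5 FPKM) and srsf6b (60.4 to 81.2 FPKM), which overlapped with each other. srsf2b, srsf3a and srsf7b closed the order, each clear of the next. The paralogs were thus very unequal: srsf7a exceeded srsf7b 179- to 262-fold in morphants and 174- to 192-fold in controls, and srsf3b exceeded srsf3a 13.3- to 14-fold in morphants and 12.1- to 12.7-fold in controls.

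Levels of stage and tissue markers also differed between the 12 hpf groups. The summed FPKM of 4 presomitic mesoderm markers was 193.0 to 196.0 in morphants and 161.0 to 162.0 in controls. That of 2 notochord markers was 15.8 to 16.0 in morphants and 27.5 to 31.0 in controls, and that of 3 neural progenitor markers 249.0 to 263.0 in morphants and 289.0 to 301.0 in controls. The muscle, neuron and hatching gland sums were also lower in both morphants, and no marker found in the table was at 0 in all its libraries. The erythroid and epidermis sums overlapped between the groups. Within the lists members went both ways: 1 of the 2 notochord, 2 of the 5 muscle and 1 of the 4 neuron markers had a higher mean in morphants. Of the 4 presomitic mesoderm markers 3 did. The part of these differences in the SR values was not tested.

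At 27 hpf all 10 SR genes had a fitted change above 0 in the libraries labelled rbm8a mutant, where 50.7% of all genes did, and none passed the test. These labels did not separate rbm8a itself, which was lowest in sibling 1 (2.82 FPKM) and highest in labelled mutant 3 (14.4 FPKM). The members' median log2 fold change was 0.55 (range 0.014 to 0.71), and the median of all 28845 genes tested was 0.0071. Of these genes 0% were called and 14.8% had an unadjusted p under 0.05; among members 4 did (srsf1b, srsf2a, srsf3a and srsf5a), and the lowest adjusted p was 0.333 (limma). Without sibling 2, 612 genes were called, few beside the 28845 tested in the main fit. With so few called, the 0 members among them are no result about the SR genes. In 4 members (srsf2a, srsf3a, srsf5a and srsf6b) every library labelled mutant lay above every sibling, where 10.5% of all genes did. No member lay below, where 9.92% of all genes did. Most genes of the related lists given below also had a fitted change above 0 in this table. These were 6 of 7 other SR genes, 14 of 14 SR-related, 6 of 9 kinases and import factors, and 22 of 25 hnRNP and PTB genes.

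srsf2a had 13.1, 11.6 and 9.89 FPKM in labelled mutants and 4.67, 9.29 and 6.42 FPKM in siblings. The groups were separated by a margin much smaller than the range among siblings. The log2 fold change was 0.71 (SE 0.31, 95% interval 0.0098 to 1.41, limma adjusted p = 0.334).

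srsf5a had 5.43, 4.36 and 6.29 FPKM in labelled mutants and 2.95, 4.02 and 3.24 FPKM in siblings, a log2 fold change of 0.56 (SE 0.22). srsf3a had 2.52, 3.87 and 2.91 FPKM in labelled mutants and 1.26, 1.95 and 2.21 FPKM in siblings, a log2 fold change of 0.51 (SE 0.20). Each of these genes was higher in all 3 labelled mutants, with 21 to 582 reads behind a value of srsf3a. srsf6b had 5.73, 5.43 and 4.29 FPKM in labelled mutants and 3.45, 3.63 and 4.196 FPKM in siblings, so that its lowest mutant and highest sibling nearly met.

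The groups overlapped for the rest. srsf1b had 7.14, 3.47 and 6.46 FPKM in labelled mutants and 3.30, 3.92 and 3.16 FPKM in siblings, with 1 mutant library in the sibling range. srsf1a had 21.7, 15.9 and 18.4 FPKM in labelled mutants and 7.22, 18.3 and 12.8 FPKM in siblings. srsf7a had 15.0, 13.7 and 10.9 FPKM in labelled mutants and 5.37, 11 and 8.94 FPKM in siblings, and srsf3b 11.3, 11.1 and 9.97 FPKM in labelled mutants and 4.60, 10.9 and 6.95 FPKM in siblings. For srsf2a, srsf1a, srsf7a and srsf3b the lowest value of the 6 was that of sibling 1 and the highest that of mutant 1. Without sibling 1 the members' median was 0.34, and with quantile normalization between libraries it was 0.24.

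srsf7b and srsf2b did not share the shift. srsf7b had 1.36, 2.75 and 1.58 FPKM in labelled mutants and 1.90, 1.497 and 1.82 FPKM in siblings, a log2 fold change of 0.014 (SE 0.20). srsf2b had 5.32, 11.8 and 4.82 FPKM in labelled mutants and 4.39, 3.76 and 10.6 FPKM in siblings, with 1 high library in each group.

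The scale of the libraries varied at 27 hpf. Their FPKM sums were 6486819, 3978678 and 6040931 in labelled mutants and 2329160, 5071635 and 1665064 in siblings, which overlapped. As a share of all reads, the SR genes together took 0.0166%, 0.0237% and 0.0149% in labelled mutants and 0.0152%, 0.0156% and 0.0334% in siblings, which overlapped and had their highest value in a sibling. Summed FPKM of 5 muscle markers was 522.0 to 761.0 in labelled mutants and 296.0 to 473.0 in siblings, and that of 3 epidermal markers 1260.0 to 1930.0 in labelled mutants and 543.0 to 1240.0 in siblings. The hatching gland marker was higher, and the 4 presomitic mesoderm markers together lower, in every labelled mutant. The part of scale and tissue makeup in the SR values was not tested.

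**Figure D2:**
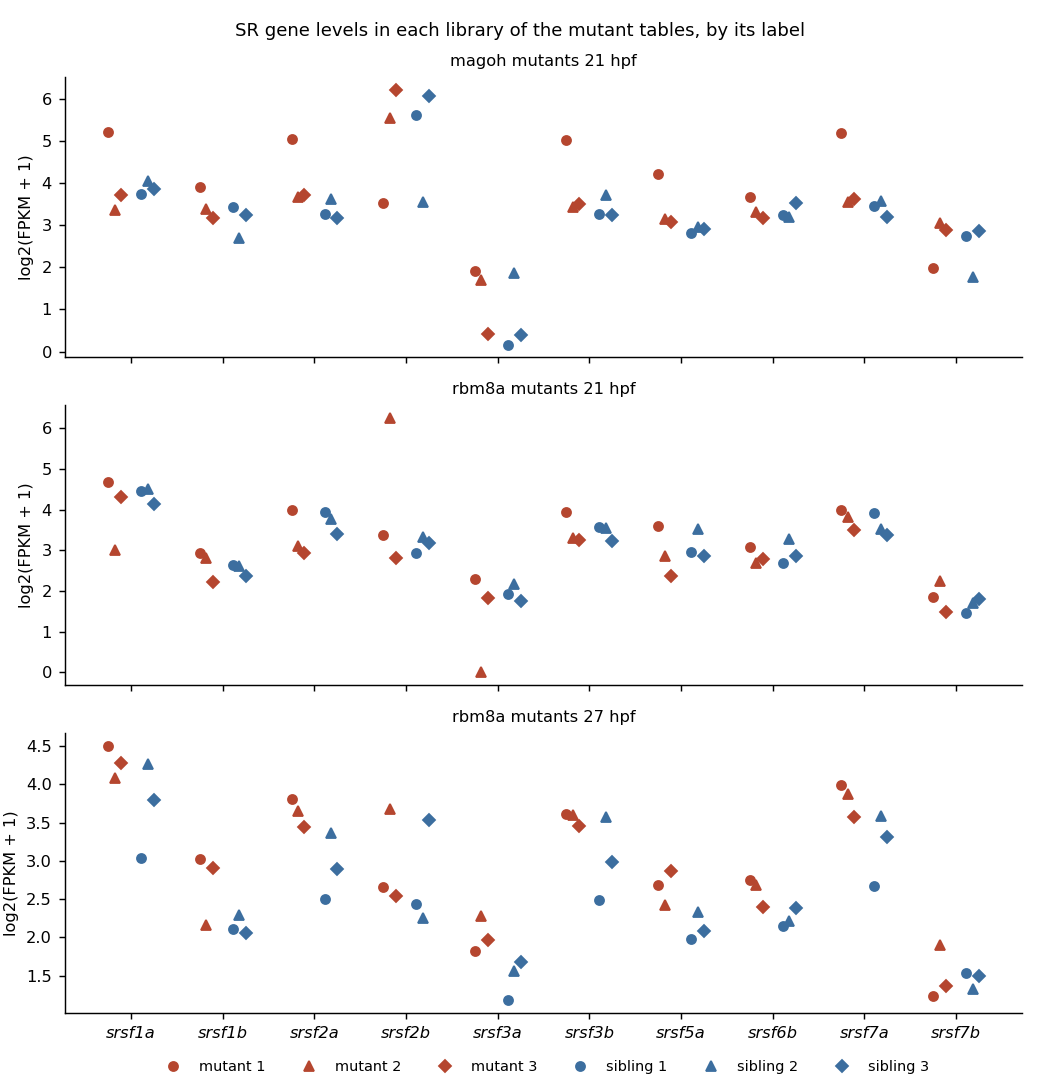
log2(FPKM + 1) of the 10 SR genes in each library of the mutant tables, libraries labelled mutant left of siblings, with the marker shape giving the replicate number. magoh mutant 1 stands above the rest for srsf1a, srsf2a, srsf3b, srsf5a and srsf7a, magoh mutant 1 and sibling 2 lie low for srsf2b, rbm8a mutant 2 at 21 hpf stands out for srsf2b, srsf1a and srsf3a, and the groups lie apart for 4 genes at 27 hpf.

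At 21 hpf the SR genes showed no common direction in the libraries labelled rbm8a mutant. Of the 10 members 5 had a fitted change above 0 (49.4% of all genes did) and 5 below. Their median log2 fold change was 0.037 (range -0.24 to 0.32). Of the 30411 genes tested 0 were called (0%), and 660 had an unadjusted p under 0.05. Without mutant 1, 26 genes were called, so few that the 0 members among them are no result about the SR genes. No member had an unadjusted p under 0.05, as 2.17% of all genes did, and every adjusted p was 1.00 (limma). In 0 members did the groups lie apart, where 2.12% of all genes were higher and 2.44% lower in every labelled mutant.

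srsf1a had 24.7, 7.12 and 18.8 FPKM in labelled mutants and 21.2, 21.6 and 16.6 FPKM in siblings, with the shallow library mutant 2 lowest. srsf7a had 14.8, 13.2 and 10.3 FPKM in labelled mutants and 14.1, 10.6 and 9.36 FPKM in siblings. srsf3b had 14.4, 8.87 and 8.55 FPKM in labelled mutants and 11, 10.7 and 8.35 FPKM in siblings. In each of these genes the libraries of a label differed among themselves by more than the group means did.

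srsf3a was listed at 0 in mutant 2, where 3 reads would have been 0.727 FPKM; it had 3.93 and 2.58 FPKM in the other labelled mutants and 2.80, 3.53 and 2.39 FPKM in siblings. srsf2a had 14.8, 7.65 and 6.67 FPKM in labelled mutants and 14.5, 12.8 and 9.56 FPKM in siblings. srsf5a (4.21 to 11.1 FPKM in labelled mutants, 6.31 to 10.6 FPKM in siblings), srsf6b (5.46 to 7.53 FPKM in labelled mutants, 5.50 to 8.77 FPKM in siblings), srsf1b (3.67 to 6.60 FPKM in labelled mutants, 4.16 to 5.19 FPKM in siblings) and srsf7b (1.80 to 3.73 FPKM in labelled mutants, 1.76 to 2.51 FPKM in siblings) overlapped as well. Members rested on as few as 12 reads in mutant 3 (srsf7b).

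At 21 hpf in the magoh table all 10 members again had a fitted change above 0, where 56.1% of all genes did, and none passed the test. Most genes of the related lists given below also lay above 0 in this table. The median log2 fold change of the 10 members was 0.41 (range 0.054 to 0.73), and that of all 30281 genes was 0.05. Of all genes 0% were called, and 4.4% (1332 genes) had an unadjusted p under 0.05. Among members 1 did (srsf2a). The direction rested on few libraries. Without mutant 1 and sibling 2, which stand apart, and without the RUVs factor (both changed at once, an alternative chosen after seeing the data), 6 of the 9 members that could be tested lay above 0 and 3 below (srsf1a -0.26, srsf6b -0.14 and srsf1b -0.06), and the median was 0.17. It was 0.20 without mutant 1 alone and 0.20 without sibling 2 alone. As a share of all reads, the SR genes together took 0.0178%, 0.0531% and 0.0666% in labelled mutants. In siblings they took 0.0561%, 0.0189% and 0.0641%, so the shares overlapped.

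srsf2a had 31.7, 11.7 and 12.2 FPKM in labelled mutants and 8.56, 11.2 and 7.92 FPKM in siblings. All labelled mutants were above all siblings, as in 1.93% of all genes (2.04% lay below), by a narrow margin in 2 of them. The log2 fold change was 0.73 (SE 0.24, unadjusted p = 0.0144, limma adjusted p = 0.847). srsf5a, the other member whose groups lay apart, had 17.6, 7.90 and 7.41 FPKM in labelled mutants and 6.03, 6.79 and 6.48 FPKM in siblings, a log2 fold change of 0.54 (SE 0.25). In the same alternative these changes were 0.48 for srsf2a and 0.25 for srsf5a.

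In srsf7a, srsf3b and srsf1a mutant 1 set much of the mutant mean. srsf7a had 35.6, 10.6 and 11.4 FPKM in labelled mutants and 9.98, 10.9 and 8.08 FPKM in siblings. srsf3b had 31.6, 9.75 and 10.2 FPKM in labelled mutants and 8.57, 12.1 and 8.39 FPKM in siblings, and srsf1a 36.1, 9.30 and 12.0 FPKM in labelled mutants and 12.3, 15.4 and 13.5 FPKM in siblings. In srsf1a the other labelled mutants lay below all 3 siblings. srsf6b (8.05 to 11.7 FPKM in labelled mutants, 8.16 to 10.5 FPKM in siblings) and srsf1b (7.998 to 14.1 FPKM in labelled mutants, 5.43 to 9.82 FPKM in siblings) overlapped.

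srsf7b had 2.95, 7.31 and 6.41 FPKM in labelled mutants and 5.69, 2.44 and 6.25 FPKM in siblings, with its lowest values in the 2 libraries that stand apart. srsf3a had 2.77, 2.23 and 0.331 FPKM in labelled mutants and 0.125, 2.67 and 0.314 FPKM in siblings, on 4 to 105 reads. It was thus higher in those 2 libraries and in mutant 2 than in the other 3, which cuts across the labels.

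**Figure D3:**
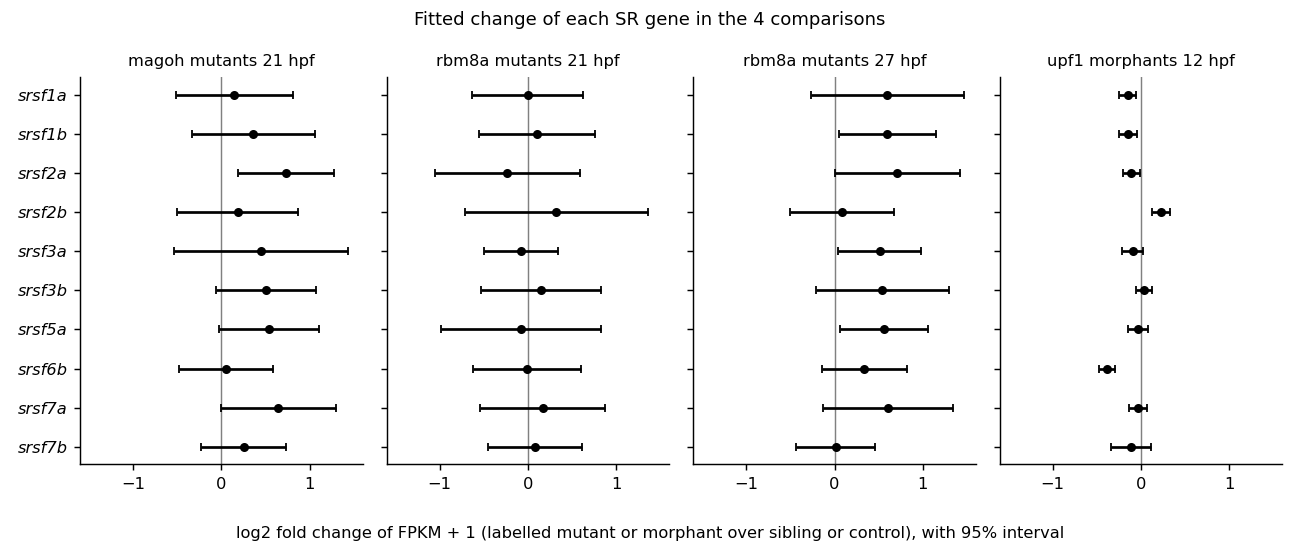
Fitted log2 fold change of each SR gene, with its 95% interval, in the 4 comparisons (x axis, libraries labelled mutant or morphant over siblings or controls). The morphant intervals are narrow and lie between -0.47 and 0.33, and most intervals of the mutant comparisons are wide and span 0.

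In the mutant tables the level of srsf2b followed the library and not the label. In the magoh table it had 10.6, 45.6 and 72.8 FPKM in labelled mutants and 48.1, 10.6 and 65.3 FPKM in siblings, the low values being those of the 2 libraries that stand apart. At 21 hpf in the rbm8a table it had 75.8 FPKM in mutant 2, against 9.49 and 6.01 FPKM in the other labelled mutants and 6.70 to 9.08 FPKM in siblings. The 5 libraries with over 45 FPKM of srsf2b were the 5 with FPKM sums of 798941 to 917270. In every other library of the mutant tables the FPKM sum was at least 1665064 and srsf2b was at most 11.8 FPKM. srsf7b split along the same libraries over a smaller range, with 3.73 to 7.31 FPKM in those 5 and at most 2.95 FPKM in the others.

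srsf2a did not follow that order. The ratio of srsf2a to srsf2b was 0.167 to 3.0 in labelled magoh mutants and 0.121 to 1.06 in their siblings, 0.101 to 1.56 in labelled rbm8a mutants and 1.18 to 2.16 in siblings at 21 hpf, and 0.981 to 2.46 in labelled mutants and 0.604 to 2.47 in siblings at 27 hpf. All of these ranges overlapped. The mutant libraries were depleted of rRNA and the morphant libraries selected for poly(A), and the tables were scaled separately, so these ratios are not set against those at 12 hpf. The alignment allowed reads with several matches, under TopHat2's default limit; whether the counting kept reads that match both paralogs is not given in the sources used here. The part of library scale in the srsf2b and srsf7b values was not tested.

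**Figure D4:**
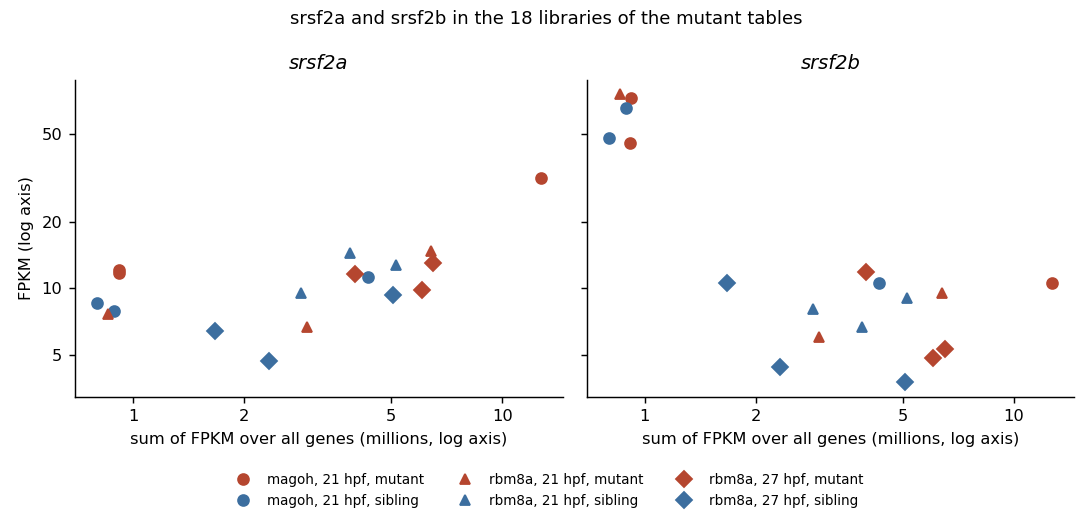
FPKM of srsf2a (left) and srsf2b (right) in the 18 libraries of the mutant tables against the sum of FPKM over all genes in the library, all axes logarithmic, with colour for the label and shape for the table. The 5 libraries with srsf2b above 45 FPKM are those with the lowest FPKM sums, and srsf2a shows no such group.

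Across all 22 libraries, with log2(FPKM + 1) centred inside each table, srsf2a (r = 0.859), srsf5a (0.842), srsf3b (0.815) and srsf7a (0.81) varied most like the mean of the other members. srsf6b, srsf1b and srsf1a had r of 0.664, 0.651 and 0.542, and srsf3a of 0.23. srsf7b (-0.182) and srsf2b (-0.415) varied against the rest. Over the 4 libraries of the morphant table alone srsf2b (r = -0.998) and srsf3b (-0.733) ran against the others, and srsf5a (0.388) and srsf7a (0.38) followed them weakly. Points of one table share their scaling and depth, including those of the libraries that stand apart, so these are descriptions. Of 16856 other genes that passed the filter in all tables, the 5 with a pattern most like the members' mean were kdm5bb (r = 0.957), cstf3 (0.955), nop58 (0.942), znf281a (0.936) and amotl2a (0.934). That likeness came from the mutant tables: over the 4 libraries of the morphant table alone, r was -0.935 for kdm5bb, -0.898 for cstf3, -0.655 for nop58 and -0.962 for znf281a, and 0.997 for amotl2a.

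The order of columns in the mutant tables alternates mutant and sibling, and the values were also read by place, the first 3 columns against the last 3, with no genotype taken from a place. By place rbm8a did separate: it had 7.01, 6.99 and 7.28 FPKM in the first 3 columns and 13.2, 8.39 and 13.3 FPKM in the last 3 at 21 hpf. At 27 hpf it had 3.69, 2.82 and 3.65 FPKM in the first 3 and 12.7, 14.4 and 10.7 FPKM in the last 3. The magoh gene did not separate by place in its table.

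Of the 10 SR genes 2 followed place in the rbm8a table at 21 hpf and 1 in the magoh table. Whether members followed place more often than all genes was not tested. At 21 hpf in the rbm8a table srsf1b (5.19 to 6.60 FPKM in the first 3 columns, 3.67 to 5.14 FPKM in the last 3) and srsf7a (13.2 to 14.8 FPKM in the first 3, 9.36 to 10.6 FPKM in the last 3) were higher in the first 3, as 2.88% of all genes were. There 0 members were lower in the first 3, where 2.47% of all genes were. In the magoh table srsf1b was higher in the first 3 columns (9.47 to 14.1 FPKM, against 5.43 to 8.50 FPKM in the last 3), as 1.87% of all genes were. Again 0 members were lower, where 2.34% of all genes were. At 27 hpf 0 of the 10 members separated by place, where 3.19% of all genes were higher and 3.45% lower in the first 3.

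Genes that act with the SR proteins were read from the same fits. In morphants, where 2.3% of all genes were called, 1 of 7 tested other SR genes was: srsf10a, whose mammalian counterpart represses splicing when it is dephosphorylated, averaged 36.9 ± 0.95 FPKM in morphants and 23.6 ± 0.82 FPKM in controls (SD, n = 2 each; log2 fold change 0.63, limma adjusted p = 0.00109). In that list 3 genes were higher and 2 lower by the adjusted p alone, beside 11.2% higher and 12.8% lower of all genes. The paralog srsf10b was among those lower and was not called. It averaged 78.4 ± 2.48 FPKM in morphants and 96.7 ± 2.62 FPKM in controls (log2 fold change -0.30, limma adjusted p = 0.00642). Of 14 SR-related proteins and partners 3 were higher and 3 lower, and of 9 SR kinases and import factors 1 was higher and 1 lower, with none called.

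Of 25 hnRNP and PTB genes, which encode RNA-binding proteins that often oppose SR proteins at exons, 3 were higher and 3 lower in morphants by the adjusted p alone, near the shares of all genes (11.2% and 12.8%). The 1 called (2.3% of all genes were) was ptbp3, a polypyrimidine-tract binding protein gene, at 8.42 ± 1.09 FPKM in morphants and 13.2 ± 0.61 FPKM in controls (SD, n = 2 each; log2 fold change -0.59, limma adjusted p = 0.0072). In the mutant tables none of these lists had a gene that passed. At 27 hpf their median log2 fold changes were 0.37 (other SR genes), 0.38 (SR-related), 0.11 (kinases and import) and 0.43 (hnRNP and PTB), beside 0.55 for the 10 SR genes and 0.0071 for all genes.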

How the data were processed

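Whole embryos were measured by RNA-seq. The authors aligned reads with TopHat2 2.0.14 to GRCz10, counted them per gene and deposited FPKM per library, calculated by DESeq2. Mutant libraries were rRNA-depleted, strand-specific and single-end; morphant libraries were poly(A)-selected and paired-end. Replicates of an experiment were sequenced in more than one run, which the labels do not identify. The deposited baseMean, a signal averaging size-factor-scaled counts, served only to recover whole reads: 100.0% of values under 200 reads lay within 0.05 of a whole number. The authors' own fold changes, errors, statistics and p-values, held in the same tables, were not used.

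Genes were fitted that reached 0.5 FPKM in at least as many libraries as the smaller group has. The fit was of log2(FPKM + 1) with limma 3.58.1 (trended prior, R 4.3.3), each table alone. Mutant tables had 1 RUVs factor (estimated from differences between libraries of one label) and morphants none. The study also used RUVs only for the mutants, but it fitted counts with DESeq2 and does not state its number of factors. Fold changes on this scale understate those of low genes. Scripts were tested on simulated data.

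The 10 members and the related lists were chosen with earlier results of these data known. All members, the targeted genes, up to 2 called genes of each list and the 5 genes most alike in pattern were named. Besides these srsf10b was named, as the paralog of srsf10a. Depth, from 1561184 to 95877745 reads, limits low members most. Libraries were not paired by replicate number in the main fits. Alternatives varied the filter, pseudocount, fold limit, scaling, RUVs factors, a replicate block, and each library left out.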

Additional observations from a re-analysis of the deposited data

How the results depend on the processing

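No member was called in any comparison under any filter, pseudocount, scaling, number of RUVs factors or block. None was in the mutant tables with 1 library left out. The main fits of the mutant tables called 0% of all genes, so 0 members in them are no result about the SR genes. Without the fold limit 4 of 10 members and 4082 of 17057 genes passed in morphants. The called genes of all tested were 901 in morphants with a pseudocount of 0.1 and 32 at 27 hpf with 2 RUVs factors. Leaving out 1 library gave 0 to 26 called genes in the rbm8a table at 21 hpf (26 without mutant 1), 0 to 612 at 27 hpf (612 without sibling 2), 0 in the magoh table and 389 to 506 in morphants. The cause was not tested.

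The members' median log2 fold change was 0.24 with quantile normalization and 0.38 with 2 RUVs factors at 27 hpf, and -0.07 with quantile normalization in morphants; without 1 library it ranged from 0.34 to 0.66 at 27 hpf and from -0.10 to -0.08 in morphants. Quantile normalization turned the sign in magoh mutants of srsf6b (-0.11), srsf1a (-0.10) and srsf2b (-0.067), in rbm8a mutants of srsf1b at 21 hpf (-0.024) and srsf2b at 27 hpf (-0.30), and in morphants of srsf5a (0.046). Without the 2 magoh libraries that stand apart and with 0 RUVs factors, chosen after seeing the data, srsf6b (-0.14), srsf1b (-0.063) and srsf1a (-0.26) turned, and srsf3a did not pass the filter. At 21 hpf in rbm8a mutants srsf1a turned with a pseudocount of 0.1 (0.0015) and srsf6b with 2 RUVs factors (0.013).

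Leaving out 1 library turned the sign of 5 members in the magoh table, where log2 fold changes ran from -0.13 to 0.18 (srsf6b), -0.049 to 0.54 (srsf1b), -0.058 to 0.82 (srsf3a), -0.26 to 0.36 (srsf1a) and -0.074 to 0.45 (srsf2b). It turned all 10 in the rbm8a table at 21 hpf: -0.16 to 0.12 (srsf6b), -0.21 to 0.38 (srsf1b), -0.34 to 0.13 (srsf3a), -0.63 to 0.36 (srsf5a), -0.042 to 0.35 (srsf7a), -0.71 to 0.11 (srsf2a), -0.21 to 0.14 (srsf1a), -0.16 to 0.37 (srsf3b), -0.082 to 0.27 (srsf7b) and -0.040 to 0.88 (srsf2b). It turned 2 at 27 hpf, -0.11 to 0.15 (srsf7b) and -0.15 to 0.39 (srsf2b), and 1 in morphants, -0.071 to 0.0020 (srsf5a). Where a morphant or control library was left out, the lone sample was assumed to vary like the other group.

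Of the same-numbered libraries in the mutant tables only magoh mutant 3 and sibling 3 deviated together (r = 0.645). The other same-numbered correlations ran from -0.776 to -0.146. In the magoh table mutant 1 and sibling 2, which stand apart, deviated together most (r = 0.857), so that table cannot show whether numbers mark pairs. In each mutant table mutant 1 with sibling 2, mutant 2 with sibling 3, and mutant 3 with sibling 1 deviated together. Their r was 0.857, 0.61 and 0.696 (magoh), 0.653, 0.516 and 0.208 (rbm8a, 21 hpf), and 0.295, 0.55 and 0.311 (rbm8a, 27 hpf). These pairings match a place in the first 3 columns with the same place in the last 3. Also above 0 were magoh mutant 2 with sibling 1 (0.636) and rbm8a mutant 3 with sibling 2 at 27 hpf (0.127). Whether the column names are in order was not tested. With a replicate block 0 members were called in each comparison. For magoh mutants 0 of all genes tested were called with the block, so that is no result about the SR genes. The main fits of the mutant tables called 0% of all genes, so the block had no call to remove there. The share of all genes called with the block is not given here for the other comparisons. The medians with the block were 0.45 (magoh), -0.02 and 0.54 (rbm8a at 21 and 27 hpf) and -0.10 (morphants).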
